A study of Mus musculus with 14 samples.

Results

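The integrated stress response is the programme by which cells react to amino acid shortage, unfolded protein and other stresses, and the genes described here are 33 of its components and targets. They were taken from a list of named ATF4 and CHOP factors, target genes and amino acid transporters, by matching the gene identifiers of all 14 count files to mouse symbols, and all 33 were found among 26270 identifiers. The study counted poly(A)-selected RNA in mouse embryonic fibroblasts (MEFs), primary cells grown from E13.5 embryos in 3% oxygen. It asked which genes differ between cells that have lost Tip60 (Kat5), a lysine acetyltransferase, and control cells. The 4 groups were Tip60-/- cells (KO) at 3 days (n = 3) and at 5 days (n = 4), and Tip60+/+ cells (control) at 3 days (n = 3) and at 5 days (n = 4). Deletion was induced with 250 nM 4-OHT, the tamoxifen metabolite that activates Cre fused to a modified oestrogen receptor. All 14 libraries carry 1 treatment text, so it is not stated whether control cells were also given 4-OHT, and the labels name neither the Cre driver nor the deleted exons.

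In the integrated stress response, kinases such as GCN2 and PERK phosphorylate the alpha subunit of the translation factor eIF2. General translation then slows while the mRNA of the transcription factor ATF4 is translated more efficiently, and ATF4 with partners such as C/EBP-gamma activates genes for amino acid synthesis, amino acid import and tRNA charging. Other targets, GADD34 and the pseudokinase Trib3 among them, act back on the pathway. Fibroblasts in culture use this programme when amino acids in the medium run down. The counts measured mRNA, so neither ATF4 protein nor the phosphorylation of eIF2 was measured.

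Library totals ran from 2187168 to 39203154 counts, the smallest being replicate 3 of KO at day 3. Kat5 averaged 19.9 CPM in KO and 31.9 CPM in control cells at day 3 (log2 fold change -0.68, SE 0.086, adjusted p = 2.02e-05), and 18.4 CPM in KO and 30.9 CPM in control cells at day 5 (-0.75, SE 0.071, adjusted p = 1.59e-06), so reads of the targeted gene remained. CPM here is the count divided by the TMM-scaled library size, on the usual scale, and tests are edgeR quasi-likelihood tests in 1 fit of all 14 libraries with Benjamini-Hochberg adjustment over 14327 genes. A gene is called at an adjusted p under 0.05. Neither the embryo identifiers nor the litters they name are shared between genotypes, so litter and genotype cannot be told apart. Of the libraries, 5 of 7 KO but 1 of 7 control were male, so sex and genotype cannot be fully told apart. Control replicates 1 and 2 at day 3 carry the same embryo label, so p-values and SDs measure partly the spread between cultures of 1 embryo. By its label, control replicate 3 at day 3 came from another embryo of the same litter. Summed over 9 fibroblast markers, none of them at 0 in any library, expression was 29664 to 32127 CPM in KO and 17258 to 21401 CPM in control cells at day 3, and 18095 to 22503 CPM in KO and 22420 to 27385 CPM in control cells at day 5. Summed over 8 cartilage markers, at most 1 of them at 0 in any library, it was 3388 to 3932 CPM in KO and 240 to 436 CPM in control cells at day 3. At day 5 the cartilage sum was 2298 to 4453 CPM in KO and 421 to 3386 CPM in control cells, the control maximum being replicate 4, whose sum lay within the KO range. By its labels (male, embryo 219-e6-I), that library was also the only male control and the only control of its litter. Of the other marker lists, the 7 neural and glial genes summed to 315 to 425 CPM in KO and 160.3 to 254 CPM in control cells at day 3, and the 7 macrophage genes to 31.5 to 43.1 CPM in KO and 50.4 to 67.3 CPM in control cells at day 3. The 6 endothelial genes summed to 16 to 17.9 CPM in KO and 11.6 to 15.8 CPM in control cells at day 3, and to 14.6 to 18.2 CPM in KO and 5.70 to 8.87 CPM in control cells at day 5. The 7 skeletal muscle genes summed to 184 to 282 CPM in KO and 348 to 422 CPM in control cells at day 5. Up to 2 of the 6 endothelial and 3 of the 7 skeletal muscle genes were at 0 in a library of those groups. The sums of these 4 lists on the other days, and of the epithelial and adipocyte lists, overlapped between genotypes. The part of these marker differences in the results was not tested. In bulk RNA, fewer cells of a type and less RNA per cell cannot be told apart.

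Messages of the integrated stress response were lower in KO than in control fibroblasts at both days. The 33 genes and the other lists were chosen with earlier results of these data known. Their counts beside those of all tested genes are therefore description and no independent support. Of the 33 genes, 29 fell in KO cells at day 3 and none was called higher, where 26.2% of all tested genes were called lower, 24.6% higher and 50.9% in either direction. At day 5, 28 fell and none was called higher, where 26.2% of all tested genes were called lower, 26.3% higher and 52.5% in either direction. The median log2 fold change of the 33 genes was -1.14 at day 3 and -0.58 at day 5, against 0.00 and 0.02 over all tested genes. Declines of more than 2-fold were called for 19 of the 33 genes at day 3 and for 14 at day 5, where 5.84% and 3.78% of all tested genes fell that far. The KO and control libraries did not overlap for 31 of the 33 genes at day 3 and for 27 at day 5, compared with 57.8% and 47.4% of all tested genes. These counts take either direction. At day 3 they include Nupr1, which was higher in KO, and Ddit4, and neither gene was called. Summed over the 33 genes, expression was 3508 to 3666 CPM in KO and 6845 to 7448 CPM in control libraries at day 3, and 2136 to 2296 CPM in KO and 3138 to 3623 CPM in control libraries at day 5. Each KO library therefore lay below each control library of its own day in the summed level.

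The promoters of these genes were read for the core of the C/EBP-ATF response element, the composite site that ATF4 dimers bind. The letters searched were TGATGNAA on either strand (TTNCATCA when read on the gene's other strand), in the 300 bases from 250 before to 50 after the RefSeq start (GRCm38.p6). Of the 33 genes, 27 had a promoter entry, and 9 of these 27 held the motif at 1 of their starts, 33.3%. The motif occurred in 309 of 10994 tested genes with an entry (2.81%). Counted by promoter, it occurred in 9 of the 33 promoters of members (27.3%) and in 328 of 14051 promoters of tested genes (2.33%). Among all 32851 promoters in the reference, 1304 held it (3.97%). The members were listed as ATF4 and CHOP factors and targets, so their share is not independent of how the list was chosen. The 9 matches are shown because they mark where, in genes whose RNA is described below, these letters lie. Each line is the gene's own strand, 5′ to 3′, from RefSeq, with the motif in capitals.
Asns, chr6:7693214-7693243, minus strand: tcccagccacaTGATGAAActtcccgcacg
Chac1, chr2:119351023-119351082, plus strand: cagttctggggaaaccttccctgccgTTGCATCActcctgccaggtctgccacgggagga
Pck2, chr14:55540137-55540196, plus strand: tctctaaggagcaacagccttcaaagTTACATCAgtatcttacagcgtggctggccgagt
Pycr1, chr11:120643818-120643877, minus strand: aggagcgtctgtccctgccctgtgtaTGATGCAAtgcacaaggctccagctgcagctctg
Trib3, chr2:152344028-152344057, minus strand: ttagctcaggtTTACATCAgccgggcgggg
Slc1a4, chr11:20332699-20332728, minus strand: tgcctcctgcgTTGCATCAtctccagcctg
Fgf21, chr7:45615596-45615655, minus strand: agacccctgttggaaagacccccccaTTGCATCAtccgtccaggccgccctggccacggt
Vldlr, chr19:27216809-27216838, plus strand: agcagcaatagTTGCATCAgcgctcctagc
Nupr1, chr7:126625562-126625591, minus strand: aaagggccagaTTGCATCAgacagggcttg
The motif ran in the direction of the gene in Asns and Pycr1 and in the opposite direction in the other 7. Its first base lay between 200 bases before the start, in Vldlr, and 14 bases after it, in Trib3. Vldlr has 2 RefSeq starts, and its match belongs to the downstream one, 540 bases inside the annotated gene, so it lies within the gene and not before it. Of the 9 genes, 8 fell in KO cells at both days and Nupr1 was not called at either day. Of all 33 genes, 26 were called lower at both days, compared with 17.3% of all tested genes. Whether the falls go with the motif was not tested. A match is a description of the letters and not a binding site, and the binding of ATF4 was not measured here. The genes Eif4ebp1, Ppp1r15b, Slc7a3, Cth, Slc1a5 and Slc7a5 had no entry.

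**Figure D1:**
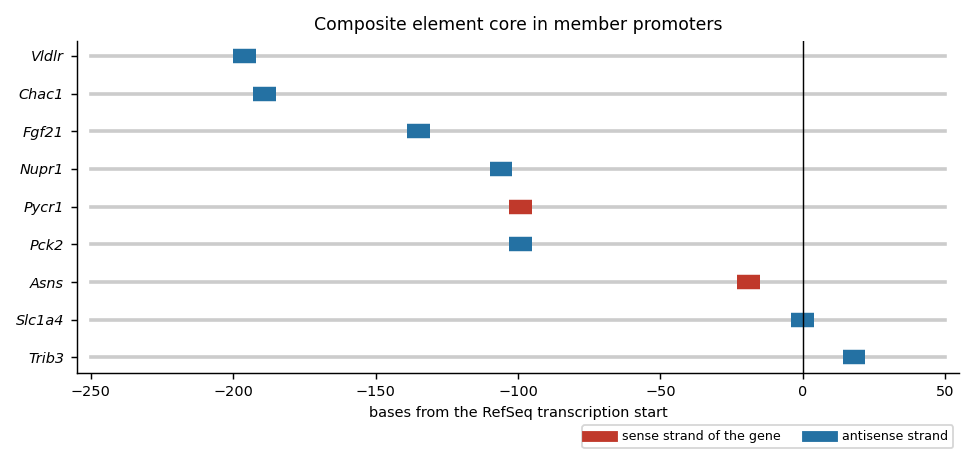
Position of the TGATGNAA motif relative to the RefSeq start (x axis, bases; 0 is the start) in the 9 promoters that hold it, 1 line per gene, with colour giving the motif's direction relative to the gene. The matches lie between 200 bases before and 14 bases after the start, and 2 of 9 run in the direction of the gene.

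Among the transcription factors and their regulators, 5 of 7 fell in KO cells at each day, with a median log2 fold change of -0.86 at day 3 and -0.58 at day 5. Beside this count and those of the role groups below, 26.2% of all tested genes were called lower at each day. Atf4, which encodes the central activator (Entrez 11911, chr15:80255184-80257545 in GRCm38), had 385, 370.1 and 334 CPM in the KO libraries and 719, 655 and 607 CPM in the control libraries at day 3. At day 5 it had 202, 193, 210.4 and 216 CPM in KO and 296, 349, 324 and 239 CPM in control libraries. The groups did not overlap at either day, and every KO library stood below every control library. The fall was 1.82-fold at day 3 (log2 fold change -0.86, SE 0.119, adjusted p = 4.66e-05) and 1.47-fold at day 5 (-0.56, SE 0.103, adjusted p = 0.000455).

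Ddit3, which encodes CHOP, a factor induced downstream of ATF4 and linked to cell death under lasting stress, differed more at day 3 than at day 5. It had 61.4, 73.3 and 66.8 CPM in KO and 278, 260.3 and 251 CPM in control libraries at day 3. The day 5 levels were 21.6, 22.1, 26.4 and 24.0 CPM in KO and 33.5, 36.7, 42.4 and 29.0 CPM in control libraries. No library of one genotype reached the range of the other at either day, though the lowest control library at day 5 came close to the highest KO library. The log2 fold change was -1.98 at day 3 (SE 0.120, adjusted p = 5.67e-08) and -0.58 at day 5 (SE 0.104, adjusted p = 0.000346), and the difference between the 2 effects was itself called (1.40, SE 0.156, adjusted p = 0.000115).

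Atf5, an ATF4 relative that is also under translational control, had 236, 206 and 232 CPM in KO and 533, 565 and 504 CPM in control libraries at day 3. Day 5 libraries held 105, 99.7, 136 and 132 CPM in KO and 305, 343, 324 and 299 CPM in control libraries. The groups were far apart at both days, with log2 fold changes of -1.25 (SE 0.116, adjusted p = 1.67e-06) at day 3 and -1.43 (SE 0.10, adjusted p = 1.45e-07) at day 5. Trib3, a pseudokinase that binds ATF4 and CHOP and restrains them, had 82.1, 73.7 and 68.0 CPM in KO and 226, 233 and 214 CPM in control libraries at day 3. Its day 5 values were 10.4, 11.6, 10.6 and 11.1 CPM in KO and 45.7, 55.5, 57.8 and 25.5 CPM in control libraries, so the lowest control library still stood above every KO library. Trib3 fell by 1.58 on the log2 scale at day 3 (SE 0.215, adjusted p = 6.87e-05) and by 2.07 at day 5 (SE 0.198, adjusted p = 3.49e-06).

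Cebpg, the partner with which ATF4 forms dimers, averaged 81.9 ± 8.91 CPM in KO and 143 ± 0.788 CPM in control cells at day 3 (SD, n = 3 each), and 52.9 ± 1.51 CPM in KO and 77.8 ± 9.0 CPM in control cells at day 5 (SD, n = 4 each). It fell at both days (log2 fold changes -0.81 and -0.56, adjusted p = 1.38e-05 and 7.98e-05). Cebpb, a C/EBP factor of many inflammatory and metabolic programmes, was not called, with log2 fold changes of -0.36 (adjusted p = 0.307) at day 3 and -0.58 (adjusted p = 0.0621) at day 5. Without control replicate 4 at day 5, the Cebpb value at that day was -0.74 and was called (adjusted p = 0.0138). Nupr1, a small stress-induced nuclear protein, had the opposite direction at both days. It had 119, 107 and 133 CPM in KO and 78.1, 99.8 and 88.2 CPM in control libraries at day 3, groups that did not overlap, yet the difference did not pass the test (0.44, SE 0.385, adjusted p = 0.368). At day 5 Nupr1 had 57.6, 69.8, 120.3 and 143 CPM in KO and 42.3, 45.3, 47.1 and 104 CPM in control libraries (0.71, SE 0.332, adjusted p = 0.0926). The control library at 104 CPM was replicate 4, which had KO-like cartilage markers and was the only male control and the only control of its litter. These traits cannot be told apart in 1 library. Without it the day 5 difference was 1.13 and was called higher (adjusted p = 0.00587), as it was without KO replicate 1.

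**Figure D2:**
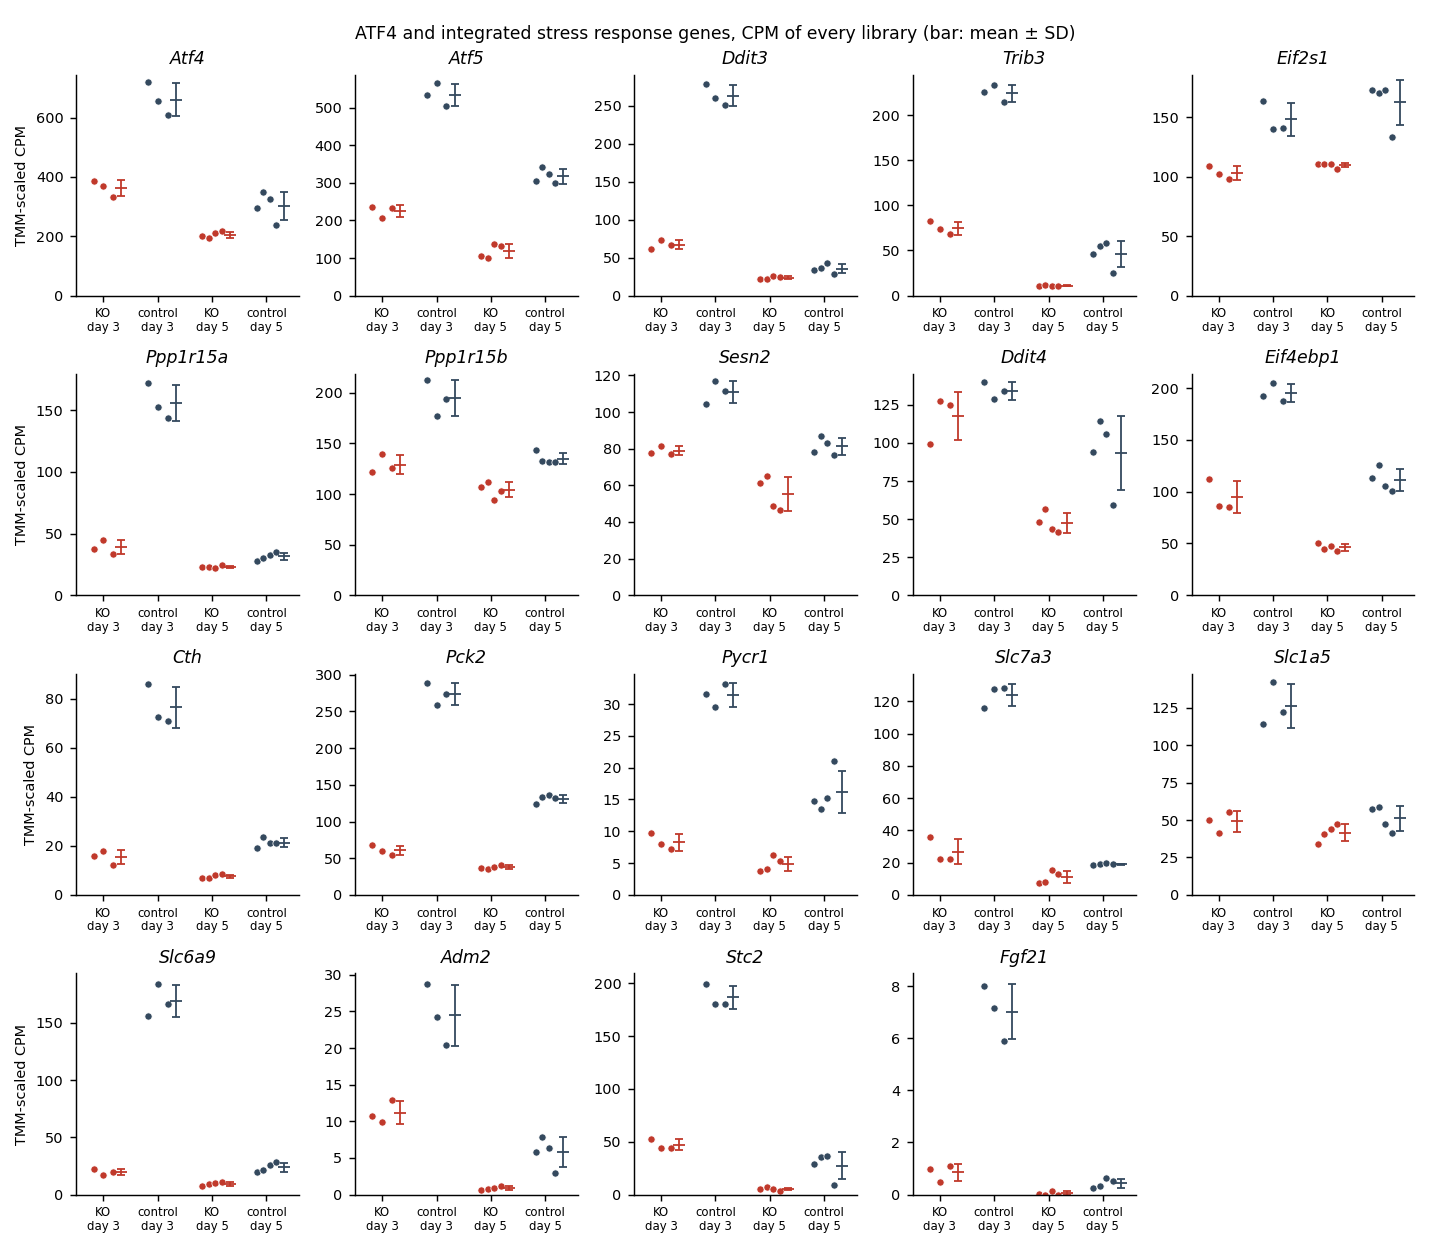
TMM-scaled CPM of single libraries (points, linear axes from 0) for 19 genes of the 6 role groups, with KO (red) left of control (blue) at day 3 and then at day 5; the bar beside the points is the mean ± SD. For Atf4, Ddit3 and Slc6a9 each KO library lies below each control library of its day, while for Slc1a5 the ranges overlap at day 5.

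Of 4 genes for eIF2-alpha, its kinase GCN2 and its phosphatase subunits, 3 fell at day 3 and 4 at day 5, with median log2 fold changes of -0.56 and -0.41. Eif2s1, which encodes eIF2-alpha itself, had 109, 102 and 98.0 CPM in KO and 164, 139.6 and 141 CPM in control libraries at day 3. By day 5 the values were 110.1, 111, 111 and 107 CPM in KO and 173, 169.9, 173 and 134 CPM in control libraries. It thus had separate ranges at both days, with log2 fold changes of -0.52 (SE 0.098, adjusted p = 0.000566) at day 3 and -0.57 (SE 0.083, adjusted p = 7.09e-05) at day 5.

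Ppp1r15a encodes GADD34, the inducible subunit that brings a phosphatase to eIF2-alpha and so ends the response. It had 37.6, 45.1 and 33.8 CPM in KO and 172, 152 and 144 CPM in control libraries at day 3. At day 5 it had 22.7, 23.0, 22.3 and 24.4 CPM in KO and 28.0, 30.4, 32.4 and 35.1 CPM in control libraries. The wide gap at day 3 had narrowed to a few CPM at day 5, although the groups still did not overlap. Ppp1r15a fell 4.10-fold at day 3 (-2.04, SE 0.109, adjusted p = 2.28e-08) and 1.36-fold at day 5 (-0.44, SE 0.092, adjusted p = 0.00109), and the 2 effects differed by 1.59 (SE 0.141, adjusted p = 2.71e-05).

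Ppp1r15b encodes CReP, the constitutive counterpart of GADD34. It had 122, 140.0 and 126 CPM in KO and 213, 177 and 194 CPM in control libraries at day 3, and 107, 112, 94.4 and 103 CPM in KO and 144, 133, 132 and 132 CPM in control libraries at day 5. It fell at both days, with log2 fold changes of -0.60 (SE 0.087, adjusted p = 6.84e-05) and -0.37 (SE 0.074, adjusted p = 0.000761). The difference between the 2 effects was not called (0.22, adjusted p = 0.205). Eif2ak4, which encodes the amino acid sensor kinase GCN2, averaged 48.6 ± 4.10 CPM in KO and 46.1 ± 3.75 CPM in control cells at day 3 and was not called (0.07, adjusted p = 0.533). At day 5 it averaged 40.0 ± 2.33 CPM in KO and 48.5 ± 3.63 CPM in control cells and fell slightly (-0.28, SE 0.079, adjusted p = 0.00881), a call that was lost with upper-quartile scaling.

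Of 3 genes that restrain mTORC1 or cap-dependent translation, 2 fell at day 3 and all 3 at day 5, and Eif4ebp1 fell by more than 2-fold at both days. Eif4ebp1 encodes 4E-BP1, which holds the cap-binding protein eIF4E. It had 113, 85.9 and 85.1 CPM in KO and 192, 205 and 188 CPM in control libraries at day 3, and 50.4, 45.0, 47.2 and 42.9 CPM in KO and 114, 126, 106 and 101 CPM in control libraries at day 5. The log2 fold changes were -1.03 (SE 0.111, adjusted p = 5.57e-06) and -1.26 (SE 0.096, adjusted p = 2.66e-07).

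Sesn2 encodes sestrin 2, a leucine sensor that restrains mTORC1. It had 77.8, 81.7 and 77.2 CPM in KO and 104, 117 and 111 CPM in control libraries at day 3, and 61.1, 65.2, 48.4 and 46.3 CPM in KO and 78.3, 87.0, 83.1 and 76.5 CPM in control libraries at day 5. It fell by 0.50 (SE 0.114, adjusted p = 0.00236) and by 0.56 (SE 0.097, adjusted p = 0.000299) on the log2 scale. Ddit4 encodes REDD1, another restraint on mTORC1 that hypoxia and glucocorticoids also induce. It had 99.2, 128 and 125 CPM in KO and 140.2, 129 and 134 CPM in control libraries at day 3 (-0.20, SE 0.196, adjusted p = 0.408), groups whose nearest libraries, 128 and 129 CPM, were next to each other. The day 5 levels were 47.9, 56.6, 43.5 and 41.8 CPM in KO and 94.0, 115, 106 and 59.3 CPM in control libraries, the control library nearest to KO being replicate 4. Ddit4 fell by 0.98 at day 5 (SE 0.170, adjusted p = 0.000405). The difference between its 2 effects did not pass the test (-0.77, SE 0.259, adjusted p = 0.0634), but did with the embryo as a fixed block (-0.86, adjusted p = 0.0269).

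The enzymes were the most uniform of the role groups: all 7 fell at both days, each by more than 2-fold, with a median log2 fold change of -1.88 at day 3 and -1.50 at day 5. Pck2, the mitochondrial phosphoenolpyruvate carboxykinase, had 67.6, 60.1 and 54.4 CPM in KO and 289, 259 and 274 CPM in control libraries at day 3. Day 5 libraries held 36.3, 34.7, 37.7 and 41.3 CPM in KO and 124, 133, 136 and 132 CPM in control libraries. The spread within a group was small beside the gap between groups, and Pck2 fell 4.49-fold at day 3 (-2.17, SE 0.091, adjusted p = 2.32e-09) and 3.49-fold at day 5 (-1.80, SE 0.077, adjusted p = 2.2e-09).

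Cth, cystathionine gamma-lyase, makes cysteine from cystathionine. It had 15.8, 17.8 and 12.2 CPM in KO and 86.2, 72.4 and 70.9 CPM in control libraries at day 3, and 7.03, 6.82, 7.92 and 8.33 CPM in KO and 19.2, 23.6, 21.0 and 21.2 CPM in control libraries at day 5. It fell 5.14-fold at day 3 (-2.36, SE 0.135, adjusted p = 3.69e-08) and 2.83-fold at day 5 (-1.50, SE 0.115, adjusted p = 2.88e-07). Pycr1 and Aldh18a1 encode enzymes of the route from glutamate to proline. Pycr1 had 9.73, 7.98 and 7.15 CPM in KO and 31.5, 29.5 and 33.2 CPM in control libraries at day 3, and 3.74, 4.12, 6.25 and 5.32 CPM in KO and 14.8, 13.5, 15.2 and 21.0 CPM in control libraries at day 5. Both proline genes fell by like amounts at the 2 days: the log2 fold changes of Pycr1 were -1.88 and -1.73 (adjusted p = 6.53e-06 and 2.9e-06), and those of Aldh18a1 were -1.58 and -1.51 (adjusted p = 1.37e-07 and 5.14e-08).

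Asns, asparagine synthetase, the gene in which the amino acid response element was first studied, averaged 138 ± 28.0 CPM in KO and 338 ± 32.2 CPM in control cells at day 3 (SD, n = 3 each). At day 5 it averaged 88.3 ± 4.88 CPM in KO and 185 ± 22.2 CPM in control cells (SD, n = 4 each). Its log2 fold changes were -1.28 (adjusted p = 4.21e-06) and -1.07 (adjusted p = 4.46e-06), a little over 2-fold at each day. Chac1, which degrades glutathione, averaged 23.5 ± 3.27 CPM in KO and 96.8 ± 6.57 CPM in control cells at day 3, and 9.53 ± 0.687 CPM in KO and 21.3 ± 2.80 CPM in control cells at day 5. It fell 4.00-fold at day 3 and 2.23-fold at day 5 (adjusted p = 5.67e-08 and 1.22e-06). Gpt2, the mitochondrial alanine transaminase, averaged 36.9 ± 4.92 CPM in KO and 133 ± 5.09 CPM in control cells at day 3, and 26.5 ± 1.62 CPM in KO and 53.8 ± 11.2 CPM in control cells at day 5 (log2 fold changes -1.82 and -1.02, adjusted p = 5.3e-07 and 1.38e-05).

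Of the 8 amino acid transporters, all fell at day 3 and 5 at day 5, and their median log2 fold change was -1.07 at day 3 and -0.26 at day 5. Slc6a9, which encodes the glycine transporter GLYT1, had the largest fold change of the 33 genes at day 3. It had 22.3, 16.9 and 19.6 CPM in KO and 156, 184 and 167 CPM in control libraries at day 3, and 7.42, 9.09, 10.0 and 10.8 CPM in KO and 19.5, 21.5, 25.4 and 28.2 CPM in control libraries at day 5. The fall was 8.35-fold at day 3 (-3.06, SE 0.158, adjusted p = 1.83e-08) and 2.54-fold at day 5 (-1.34, SE 0.135, adjusted p = 2.61e-06).

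Slc7a3, a cationic amino acid transporter, had 35.6, 22.1 and 22.3 CPM in KO and 116, 128 and 128 CPM in control libraries at day 3, and 7.38, 8.03, 15.3 and 13.2 CPM in KO and 18.6, 18.9, 19.6 and 19.1 CPM in control libraries at day 5. Its log2 fold changes were -2.15 (SE 0.245, adjusted p = 1.66e-05) and -0.80 (SE 0.217, adjusted p = 0.00784), and the KO libraries varied far more than the control libraries at day 5. Slc7a3 is on the X chromosome, and with sex as a covariate its day 5 value was -0.76 (adjusted p = 0.0303). Slc1a5, the neutral amino acid and glutamine transporter ASCT2, had 50.1, 41.3 and 55.7 CPM in KO and 114, 142 and 122 CPM in control libraries at day 3. By day 5 the values were 33.8, 40.8, 43.8 and 47.1 CPM in KO and 57.5, 58.5, 47.3 and 41.4 CPM in control libraries, ranges that overlapped. It fell at day 3 (-1.34, SE 0.154, adjusted p = 1.1e-05) and was not called at day 5 (-0.31, SE 0.130, adjusted p = 0.0564), but without control replicate 4 at day 5 the value was -0.41 (adjusted p = 0.00903).

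The large neutral amino acid exchanger is built from 2 chains, LAT1 (Slc7a5) and 4F2hc (Slc3a2), and both genes were called lower at day 3 but not at day 5. Slc3a2 averaged 182 ± 8.65 CPM in KO and 401 ± 40.0 CPM in control cells at day 3 (-1.14, adjusted p = 3.59e-07), and 128 ± 9.06 CPM in KO and 142 ± 7.82 CPM in control cells at day 5 (-0.15, adjusted p = 0.113, and -0.18, adjusted p = 0.0499, without control replicate 4). Slc7a5 averaged 279 ± 39.1 CPM in KO and 401 ± 51.5 CPM in control cells at day 3 (-0.52, adjusted p = 0.00333), and 161 ± 21.2 CPM in KO and 186 ± 10.3 CPM in control cells at day 5 (-0.20, adjusted p = 0.127). For Slc3a2 the difference between the days' effects was called, and for Slc7a5 it was not (0.32, adjusted p = 0.222). Of the other 3 transporter genes, Slc7a1, for the cationic amino acid transporter CAT1, fell by 1.00 at day 3 and by 0.30 at day 5 on the log2 scale (adjusted p = 2.07e-06 and 0.00672). Slc1a4, for the neutral amino acid transporter ASCT1, fell by 0.49 and by 0.21 (adjusted p = 7.69e-05 and 0.00977). Slc38a2, for SNAT2, fell by 0.45 and by 0.19 (adjusted p = 0.000439 and 0.0376). The day 5 calls of Slc7a1, Slc1a4 and Slc38a2 were lost with upper-quartile scaling, under which the Slc38a2 value was -0.07. The Slc38a2 call at day 5 was also lost without KO replicate 3 or 4 or without control replicate 1, 2 or 4, with adjusted p up to 0.126.

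**Figure D3:**
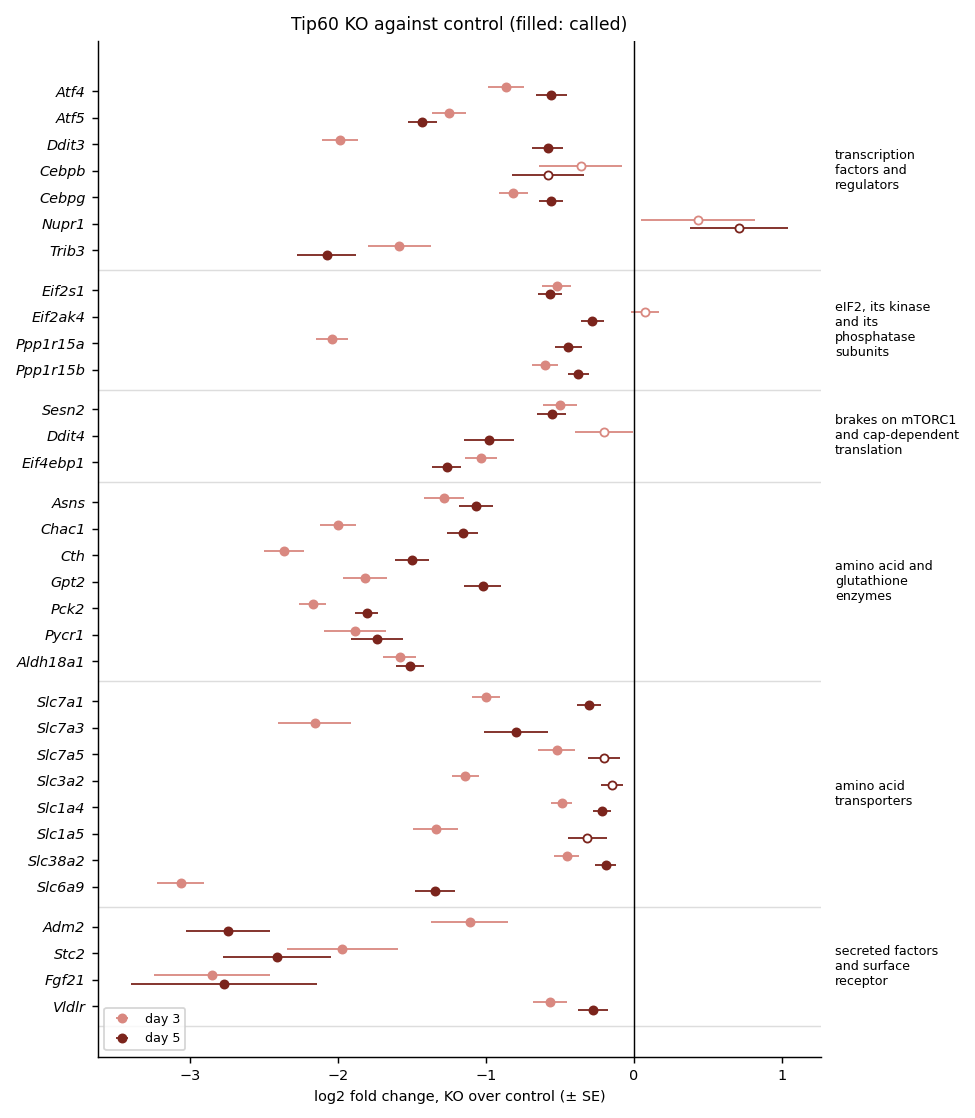
Log2 fold change of KO over control (x axis) for the 33 genes, in rows by role, at day 3 (light) and day 5 (dark), with bars of 1 SE; filled points are called at an adjusted p under 0.05. All 7 enzymes lie left of -1 at both days, and all 8 transporters lie nearer 0 at day 5 than at day 3.

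The secreted factors and the surface receptor gave 4 of 4 genes lower at each day. Adm2, adrenomedullin 2, had 10.7, 9.86 and 12.9 CPM in KO and 28.8, 24.2 and 20.4 CPM in control libraries at day 3. At day 5 it had 0.665, 0.781, 0.863 and 1.19 CPM in KO and 5.79, 7.89, 6.36 and 2.98 CPM in control libraries, every KO library below every control library. Its fold change was larger at day 5, with -2.74 (SE 0.284, adjusted p = 3.31e-06), than at day 3, with -1.11 (SE 0.261, adjusted p = 0.00282), and this difference was called (-1.63, SE 0.386, adjusted p = 0.0129). The day 5 values of Adm2 in KO rest on low counts, 11 to 19 per library and 66 in all.

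Stc2, stanniocalcin 2, a secreted glycoprotein, had 52.9, 44.1 and 44.4 CPM in KO and 199, 180.2 and 179.9 CPM in control libraries at day 3. The day 5 levels were 5.11, 6.75, 4.93 and 3.76 CPM in KO and 28.6, 35.9, 36.7 and 8.65 CPM in control libraries. Control replicate 4 lay nearer to the KO libraries than to the other control libraries, but still above all of them. The log2 fold changes were -1.97 (SE 0.378, adjusted p = 0.00112) and -2.41 (SE 0.363, adjusted p = 0.000195). Fgf21, a hormone of the fasting response, was close to the detection limit, with 49 counts in all over the KO libraries and 225 over the control libraries at day 3, and 4 over KO and 21 over control libraries at day 5. Its day 3 levels were 0.976, 0.470 and 1.11 CPM in KO and 7.99, 7.16 and 5.88 CPM in control libraries (-2.85, SE 0.393, adjusted p = 4.6e-05). The day 5 call rests on few counts (-2.77, SE 0.629, adjusted p = 0.0021). Vldlr, a receptor for lipoproteins, averaged 178 ± 11.6 CPM in KO and 263 ± 25.1 CPM in control cells at day 3 (-0.57, adjusted p = 0.000981), and 64.6 ± 6.48 CPM in KO and 78.2 ± 10.3 CPM in control cells at day 5 (-0.28, adjusted p = 0.0314). At day 5 the Vldlr ranges overlapped, and the call was lost without KO replicate 1 or 2 or without control replicate 2, 3 or 4 of that day, with adjusted p up to 0.0983.

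The KO effect differed between the days for 12 of the 33 genes, where 14.3% of all tested genes were called in either direction. For 11 of them the day 5 effect was the higher, that is nearer 0, where 7.16% of all tested genes were called in that direction, and for Adm2 it was the lower, where 7.15% were. The 11 were 5 transporter genes, 4 enzyme genes, Ddit3 and Ppp1r15a. Among the transporters the differences were 1.72 for Slc6a9 (adjusted p = 0.000163), 1.36 for Slc7a3 (0.0150), 1.03 for Slc1a5 (0.00461), 0.99 for Slc3a2 (0.000163) and 0.70 for Slc7a1 (0.00258). Among the enzymes they were 0.86 for Cth (adjusted p = 0.00537), 0.84 for Chac1 (0.00343), 0.80 for Gpt2 (0.0132) and 0.36 for Pck2 (0.0492). With the embryo as a fixed block, Slc7a3 was no longer called (adjusted p = 0.092), while Trib3 (-0.60, adjusted p = 0.0269), Stc2 (-0.67, adjusted p = 0.0432) and Vldlr (0.49, adjusted p = 0.0447) were. The Pck2 difference was lost with the same block (adjusted p = 0.120) and in most other refits, among them most of those without single libraries, with adjusted p up to 0.130. No difference was called for Atf4 itself (0.31, adjusted p = 0.208), nor for Atf5, Asns, Aldh18a1 or Pycr1. Without control replicate 4 at day 5, lower interactions were also called for Stc2 (-0.76, adjusted p = 0.0139), Ddit4 (-0.94, adjusted p = 0.00115), Trib3 (-0.70, adjusted p = 0.00171) and Eif2ak4 (-0.39, adjusted p = 0.0344), and a higher one for Slc1a4 (0.30, adjusted p = 0.0366).

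Most of the 33 messages were also lower at day 5 than at day 3, in each genotype. In KO cells 28 of the 33 fell with time, where 7.06% of all tested genes did (4.98% were called higher, 12.0% in either direction), and the median log2 change was -0.80. In control cells 29 fell, where 19.9% of all tested genes did (18.3% were called higher, 38.3% in either direction), and the median was -1.13. No member was called higher at day 5 in either genotype. Falls of more than 2-fold were called for 11 members in KO and for 19 in control cells, where 1.54% and 4.78% of all tested genes fell that far. The libraries of the 2 days did not overlap for 29 members in each genotype, compared with 26.9% of all tested genes in KO and 42.7% in control cells. The 2 time comparisons have no library in common, but each shares its libraries with the comparisons of genotype, so the 4 sets of values are not independent. In both genotypes 28 genes fell, in control cells alone Slc1a5 was called, and Eif2s1, Eif2ak4, Cebpb and Nupr1 were called in neither. The 30 genes other than Eif2s1, Eif2ak4 and Nupr1 had their highest mean in control cells at day 3 and their lowest in KO cells at day 5, a pattern of 17.4% of all tested genes. All 4 falls, KO against control at each day and day 5 against day 3 in each genotype, were called for 25 of the 33 genes, compared with 2.69% of all tested genes.

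**Figure D4:**
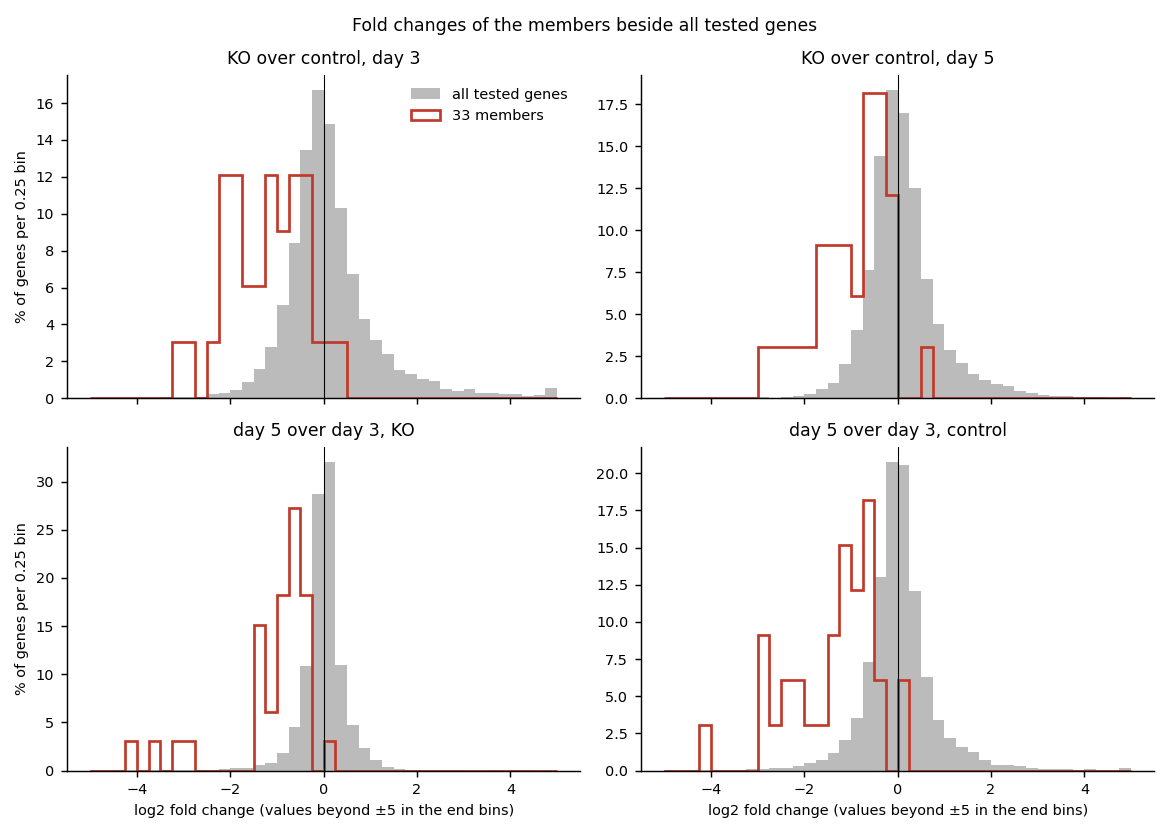
Share of genes (y axis, % per bin) by log2 fold change (x axis) for the 33 genes (red outline) and all 14327 tested genes (grey), for KO over control at each day (top) and day 5 over day 3 in KO and in control cells (bottom). The medians of the 33 genes are -1.14, -0.58, -0.80 and -1.13, in that order of panels, and those of all tested genes are near 0.

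Among the secreted factors and Vldlr the median time change was -3.47 in KO and -2.43 in control cells. Fgf21 fell by 4.04 in KO and by 4.12 in control cells on the log2 scale (adjusted p = 0.000439 and 2.07e-06), at day 5 levels of at most 0.152 CPM in KO and 0.652 CPM in control libraries. The fall in control cells is against the group through which Fgf21 passed the filter, so it was partly set by that filter. Adm2 fell by 3.71 in KO and by 2.08 in control cells (adjusted p = 3.62e-06 and 1.36e-05), and Stc2 fell by 3.22 in KO and fell by 2.78 in control cells (adjusted p = 0.000306 and 7.25e-05). Vldlr fell by 1.46 in KO and by 1.75 in control cells, values further from 0 than those between the genotypes. Some factors fell further with time in control than in KO cells. Ddit3 changed by -1.50 in KO and by -2.90 in control cells (adjusted p = 2.17e-06 and 8.72e-10), and Ppp1r15a by -0.72 and by -2.31 (adjusted p = 0.000422 and 1.5e-09), which is the same difference of effects as between the days of the KO comparison. Slc6a9 likewise changed by -1.13 in KO and by -2.84 in control cells.

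Atf4 fell by 0.82 in KO and by 1.13 in control cells with time (SE 0.110 each, adjusted p = 0.000293 and 3e-06). Trib3 fell by 2.78 in KO and by 2.29 in control cells (adjusted p = 5.47e-06 and 2.6e-06), values further from 0 than those between the genotypes at either day. Eif2s1 kept the genotype difference without a called change over time, with values of 0.09 in KO and 0.13 in control cells (adjusted p = 0.618 and 0.265). Since 3 KO and 2 control embryos were sampled at both days, the embryo was also fitted as a block. With it, the change of Ppp1r15b and of Slc7a3 in KO cells (adjusted p = 0.0645 and 0.0576) and that of Ddit4 in control cells (adjusted p = 0.0579) no longer passed the test, and Nupr1 was called lower with time in control cells (-1.01, adjusted p = 0.0155). Without replicate 2 of KO at day 3, the falls of Gpt2 and Pycr1 in KO cells were lost (adjusted p = 0.133 and 0.145). The Gpt2 fall was also lost without replicate 4 of KO at day 3 or replicate 1 or 3 of KO at day 5 (adjusted p = 0.0642, 0.0628 and 0.0680). The Ppp1r15b fall in KO cells was lost without replicate 3 or 4 of either day, with adjusted p up to 0.0948, and the Slc38a2 fall without replicate 3 or 4 of KO at day 3 or replicate 4 of KO at day 5, with adjusted p up to 0.0739. The Ddit4 fall in control cells was lost without any of the 3 control libraries of day 3 or without control replicate 1 at day 5, with adjusted p up to 0.0946. It was also lost when the 2 control libraries of 1 embryo at day 3 were summed (adjusted p = 0.0782).

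**Figure D5:**
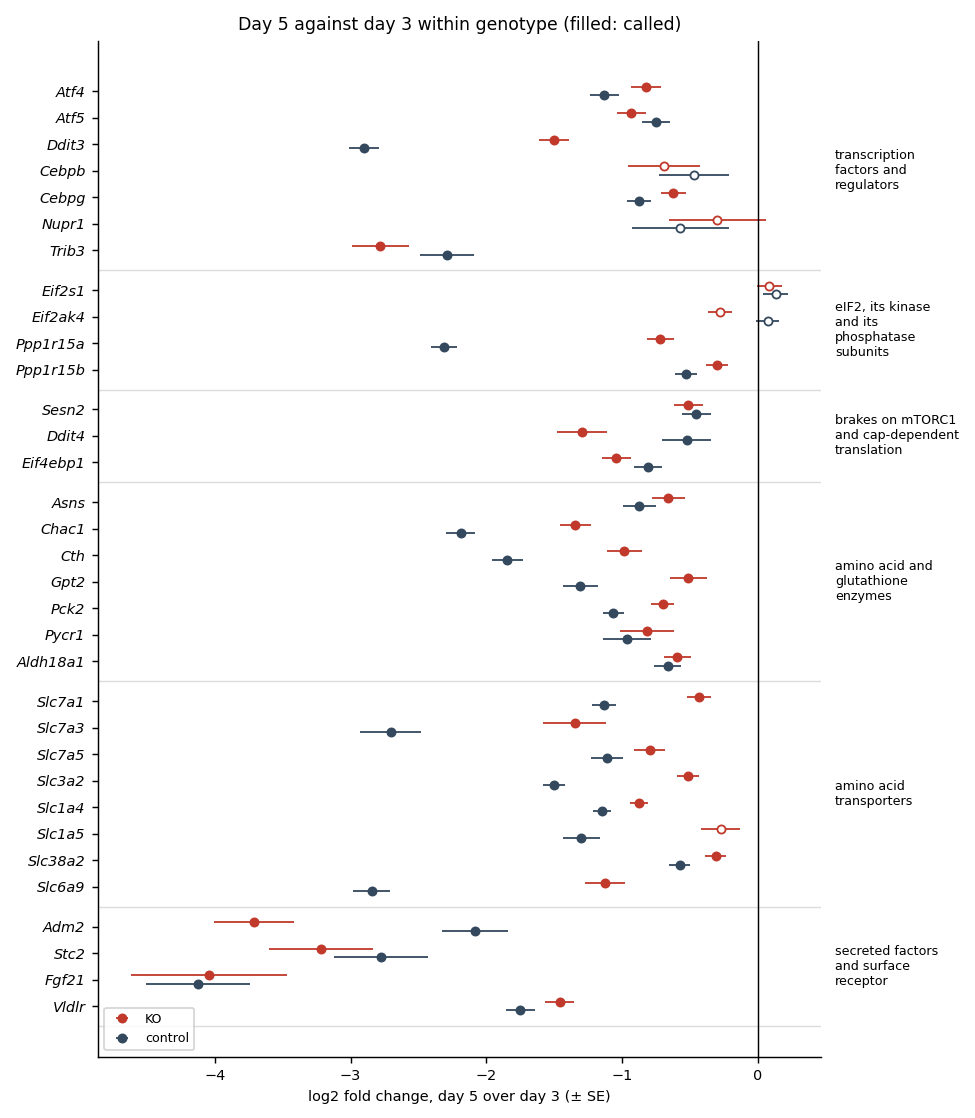
Log2 fold change of day 5 over day 3 (x axis) for the 33 genes, in rows by role, in KO (red) and in control cells (blue), with bars of 1 SE; filled points are called at an adjusted p under 0.05. Adm2 lies further from 0 in KO cells, and Ddit3, Ppp1r15a and Slc6a9 lie further from 0 in control cells.

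On a scale per transcript length (TPM, computed with the deposited gene lengths), Atf4 had the highest level of the 33 genes in control cells at day 3, with 997 TPM, followed by Ddit3 with 787, Atf5 with 698 and Eif4ebp1 with 518 TPM. In KO cells at day 3, Atf4 at 583 TPM was followed by Nupr1 at 527 TPM, while Ddit3 stood at 214 TPM. At day 5 in KO cells Nupr1 led with 453 TPM, ahead of Atf4 with 347 TPM. Fgf21 was the lowest in all 4 groups, with 2.47 TPM in KO and 19.3 TPM in control cells at day 3. The 33 genes together took 0.333% to 0.355% of the counts in KO libraries and 0.676% to 0.714% in control libraries at day 3, and 0.225% to 0.237% in KO and 0.298% to 0.362% in control libraries at day 5.

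Of 15 genes for the other eIF2 kinases, the other eIF2 and eIF2B subunits and their regulators, 5 were called lower and 4 higher in KO cells at day 3, and 7 lower and 2 higher at day 5. At day 3 these shares lie near those of all tested genes, 26.2% lower and 24.6% higher, and at day 5 all tested genes had 26.2% lower and 26.3% higher. Their median log2 fold change was 0.00 at day 3 and -0.15 at day 5. Eif2ak3, which encodes the endoplasmic reticulum kinase PERK, was not called at either day (0.03, adjusted p = 0.869, and -0.15, adjusted p = 0.279). The gene for the beta subunit of eIF2, Eif2s2, averaged 49.3 CPM in KO and 110.0 CPM in control cells at day 3 (-1.15, adjusted p = 1.27e-07), and 44.6 CPM in KO and 73.8 CPM in control cells at day 5 (-0.72, adjusted p = 1.19e-06). Impact, an inhibitor of GCN2 activation, averaged 145 CPM in KO and 273 CPM in control cells at day 3 (-0.92, adjusted p = 3.64e-06), and 111 CPM in KO and 231 CPM in control cells at day 5 (-1.06, adjusted p = 2.68e-07). Dnajc3, for the kinase inhibitor P58IPK, fell at day 3 (-0.75, adjusted p = 1.74e-05). Dele1, which relays mitochondrial stress to the kinase HRI, was higher in KO cells at both days. It averaged 39.2 CPM in KO and 31.1 CPM in control cells at day 3 (0.35, adjusted p = 0.00384). At day 5 it averaged 44.8 CPM in KO and 27.2 CPM in control cells (0.72, adjusted p = 2.94e-06). Also called higher at day 3 were Oma1 (0.66, adjusted p = 0.000417) and the eIF2 kinase genes Eif2ak1 (0.24, adjusted p = 0.0217) and Eif2ak2 (0.81, adjusted p = 0.0160). The Eif2ak2 ranges overlapped.

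Of 15 other genes known as ATF4 or CHOP targets, 13 fell in KO cells at day 3 and none was called higher, and 11 fell and 2 were called higher at day 5, with medians of -1.28 and -0.71. Of all tested genes, 26.2% were called lower at each day, and 24.6% higher at day 3 and 26.3% at day 5. This list and that of the tRNA synthetases below were chosen with earlier results of these data known. Aldh1l2, a mitochondrial folate enzyme, averaged 86.4 CPM in KO and 526 CPM in control cells at day 3 (-2.61, adjusted p = 6.37e-10), and 20.03 CPM in KO and 128 CPM in control cells at day 5 (-2.68, adjusted p = 1.35e-10). Psph, the last enzyme of serine synthesis, fell by 2.05 at day 3 (adjusted p = 8.54e-08), and Herpud1, a component of endoplasmic reticulum degradation, fell by 1.84 (adjusted p = 1.37e-07). At day 5 Psat1, an earlier enzyme of serine synthesis, fell by 1.28 (adjusted p = 3.47e-07) and Xpot, the tRNA exporter, by 0.71 (adjusted p = 5.65e-07). The 2 genes called higher at day 5, named after their values were seen, were Slc7a11 and Atf3. Slc7a11, the cystine transporter, which NRF2 also controls, averaged 69.0 CPM in KO and 13.9 CPM in control cells (2.30, adjusted p = 5.02e-06). Atf3, also an immediate early gene, averaged 7.06 CPM in KO and 4.12 CPM in control cells (0.76, adjusted p = 0.00352). At day 3 Atf3 was called lower, with 14.4 CPM in KO and 39.7 CPM in control cells (-1.52, adjusted p = 2.96e-05).

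Of 20 cytosolic aminoacyl-tRNA synthetase genes, a class with ATF4 targets in it, 18 fell and 1 was called higher (log2 fold change 0.31) in KO cells at day 3. At day 5, 19 fell and none was called higher, and the medians at the 2 days were -1.13 and -0.90. Which of the 20 respond to ATF4 in these cells was not tested. The shares of all tested genes called lower were 26.2% at each day, and those called higher were 24.6% and 26.3%. Sars, the seryl-tRNA synthetase gene, averaged 219.8 CPM in KO and 632 CPM in control cells at day 3 (-1.52, adjusted p = 3.09e-08), and 118 CPM in KO and 271 CPM in control cells at day 5 (-1.19, adjusted p = 3.74e-08). Cars, for cysteine, fell by 1.63 and by 1.40 (adjusted p = 1.89e-07 and 1.76e-07), Wars, for tryptophan, by 1.69 at day 3 (adjusted p = 5.67e-08), and Iars, for isoleucine, by 1.07 at day 5 (adjusted p = 5.01e-07). With time, 8 of the 20 were called lower and none higher at day 5 in KO cells, and 13 lower and 2 higher in control cells, where 7.06% and 19.9% of all tested genes were called lower.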

How the data were processed

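RNA was sequenced as paired 80-base reads from a stranded poly(A) library kit, per the labels' protocols. The authors deposited 1 table of raw counts per gene and library, with Entrez identifiers and gene lengths; featureCounts and the mm10 build are named in the submitters' processing notes, while no source used here gives versions, strand setting or aligner. Lines without an identifier (909 of 27179) held 0.194% to 0.315% of the counts and were left out, as were 112 genes (the Y-linked ones, Xist and Tsix). Low counts were removed with filterByExpr, which left 14327 genes and all 33 members. The model was a robust quasi-likelihood fit in edgeR 4.0.16 (R 4.3.3) with TMM scaling, 1 mean for each of 4 groups and all 14 libraries. Interactions are the KO effect at day 5 minus that at day 3. Alternatives used DESeq2 1.42.0, limma 3.58.1 with duplicateCorrelation, other scalings, filters and libraries left out. TPM came from the counts and the deposited lengths. The script was tested on simulated data. No pair of libraries within a group agreed within sampling noise. Same-numbered KO and control libraries came from different embryos, while 5 embryos were sampled at both days, per the labels. Reads that a gene shares with processed pseudogenes or overlapping genes could not be separated. The members and lists were chosen with earlier results of these data known. All 33 genes are named, and CPM of every library is given for Atf4 and Ddit3. It is also given for the 3 genes of each role group with the largest mean absolute fold change over the 2 days. Nupr1 was added after its values were seen. So were the eIF2 kinases Eif2ak1, Eif2ak2 and Eif2ak3, Oma1 and the 2 ATF4 targets called higher. Of the other lists, the 3 called genes with the smallest adjusted p at each day are named.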

Additional observations from a re-analysis of the deposited data

Results flagged for a closer look

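In 4 of 68 groups of 4 libraries, 1 library lay far from the other 3; chance gives about 1 in 20. Nupr1 was at 104 CPM in control replicate 4 at day 5, with 42.3 to 47.1 CPM in the other 3. Eif2s1 was at 107 CPM in KO replicate 4 at day 5, with 110.1 to 111 CPM in the other 3, and at 134 CPM in control replicate 4 at day 5, with 169.9 to 173 CPM in the other 3. Ppp1r15b was at 144 CPM in control replicate 1 at day 5, with 132 to 133 CPM in the other 3.

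The KO effect differed between day 5 and day 3, by the interaction test in edgeR, for 12 of the 33 genes. The day 5 effect minus the day 3 effect on the log2 scale was 1.72 for Slc6a9, 1.59 for Ppp1r15a, 1.40 for Ddit3, 1.36 for Slc7a3, 1.03 for Slc1a5, 0.99 for Slc3a2, 0.86 for Cth, 0.84 for Chac1, 0.80 for Gpt2, 0.70 for Slc7a1, 0.36 for Pck2 and -1.63 for Adm2.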

How the results depend on the processing

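Of 4024 recomputed values of single members, 3900 kept direction and call, 64 lost the call, 47 gained one and 13 changed sign. The 29 members lower at day 3 stayed at 29 in number under each alternative run; at day 5 the count was 23 to 29 (main 28), the 23 with upper-quartile factors, which moved the median of all genes to 0.12 at day 3 and 0.14 at day 5 and that of the members to -1.01 and -0.46. Under that scaling, 37.9% of calls over all genes were lower at day 3 (main 51.6%) and 35.6% at day 5 (main 49.9%), and 49.1% for time in KO (main 58.7%). Members called higher at day 5 numbered 1, Nupr1, with DESeq2 (0.71, adjusted p = 0.0389), with replicate number as a block (0.72, adjusted p = 0.0119) and, chosen after seeing the data, without KO replicate 3 at day 3 and control replicate 4 at day 5 (1.13, adjusted p = 0.00391); at day 3 it was 1, Nupr1, in a fit of only the groups compared (0.48, adjusted p = 0.00534). Members with a lower interaction numbered 2 with DESeq2, 3 with sex as a covariate, 4 with the embryo as a fixed block and 4 without both libraries, and 1 member, Eif2s1, was higher with time in control cells without both (0.21, adjusted p = 0.0252). Leaving out 1 library at a time gave 0 to 1 members higher at day 5, 1 to 5 with a lower interaction, 0 to 1 higher with time in control cells, and over all genes 1275 to 2750 interactions (main 2051) and 1024 to 2549 changes with time in KO (main 1725). Without both libraries the interaction of Aldh18a1 was -0.033. The interaction of Fgf21 was -0.11 with DESeq2 and -0.058 with the embryo block in duplicateCorrelation, and Ddit4 at day 3 was 0.00063 with sex as a covariate. Leaving out 1 library at a time, interactions ranged from -1.15 to 0.38 for Fgf21, -0.13 to 0.0015 for Eif2s1, -0.15 to 0.016 for Sesn2, -0.00049 to 0.35 for Pycr1 and -0.034 to 0.19 for Aldh18a1; none of these was called. The numbers of same-numbered KO and control libraries do not pair embryos, and the replicate number block left 1 member with a lower interaction. The cause of these shifts was not tested. Depth limits Fgf21, with 4 counts over the KO libraries at day 5, and litter cannot be separated from genotype.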
